A study of Mus musculus with 12 samples.

Results

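The distal part of mouse chromosome 8 examined here runs from 122500000 to 127000000 (mm9), a length of 4.5 Mb, and holds the transcription factor genes Irf8, Foxf1a and Foxc2 and a block of 5S ribosomal RNA genes. Its members were all peaks of H3K9me2 and H3K9me3 that overlap these coordinates with a score of 50 or more, which were 1451 of the 228915 peaks of the 8 lists at that score. The stretch was chosen by its peak counts and peak scores in these same lists, so its counts by diet are given as a description and carry no test. H3K9me2 and H3K9me3 had been mapped by ChIP-seq, the sequencing of chromatin pulled down with an antibody, in brown (BAT) and subcutaneous white (WAT) adipose tissue of wild-type C57BL/6J mice. All groups shared the strain and the age of 6 weeks at the start, and the mice then ate standard chow (SCD) or high-fat food (HFD) for 12 weeks. There was 1 library for each diet, tissue and mark, with no replicate, and whether a library pooled several mice is not given in the sources used here. The 8 groups were thus SCD and HFD libraries of BAT H3K9me2, BAT H3K9me3, WAT H3K9me2 and WAT H3K9me3, all from tissue cross-linked with 1% formaldehyde for 8 min.

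Methylation of lysine 9 of histone H3 is a mark of repressed chromatin. H3K9me2 is known for broad silenced domains within gene-bearing chromatin, and H3K9me3 for constitutive heterochromatin, where it is bound by HP1 proteins, and for silenced repeats. BAT burns fat for heat and WAT stores it, and both hold adipocytes beside vascular and immune cells. Within the stretch, Irf8 encodes an interferon regulatory factor of macrophages and dendritic cells, Foxf1a and Foxc2 encode forkhead factors of mesoderm and vessels, Foxc2 being also known in adipocytes, and the 5S genes encode an RNA of the large ribosomal subunit. In whole tissue, a mark in few cells and a weak mark in many cannot be told apart.

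The sequences that the results below turn on are given 5′ to 3′ from the NCBIM37 assembly (the assembly of mm9), in lower case, with each CpG dinucleotide (the letters CG, read on 1 strand, the same on the other) in capitals. The first 3 are the 250 bases before the outermost start sites of Irf8 (chr8:123260008-123260257, plus strand), Foxf1a (chr8:123608036-123608285, plus strand) and Foxc2 (chr8:123639821-123640070, plus strand), genes with a peak within 3 kb of a start site in 6 or 7 lists. The last is the central 300 bases (chr8:123990497-123990796, plus strand) of the highest-scoring HFD peak of BAT H3K9me2 that had no SCD counterpart and lay in a gap between genes, outside the 5S block.
Irf8 upstream: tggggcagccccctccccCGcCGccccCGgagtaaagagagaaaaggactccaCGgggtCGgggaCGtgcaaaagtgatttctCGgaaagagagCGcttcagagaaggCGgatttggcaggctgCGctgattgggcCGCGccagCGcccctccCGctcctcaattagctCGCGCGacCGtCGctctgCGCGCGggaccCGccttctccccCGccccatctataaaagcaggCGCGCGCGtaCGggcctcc
Foxf1a upstream: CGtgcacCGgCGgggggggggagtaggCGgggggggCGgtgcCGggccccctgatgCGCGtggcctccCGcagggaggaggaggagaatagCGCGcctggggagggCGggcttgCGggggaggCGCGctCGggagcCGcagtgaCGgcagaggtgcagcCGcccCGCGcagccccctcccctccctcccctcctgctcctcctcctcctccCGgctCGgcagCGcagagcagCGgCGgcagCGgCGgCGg
Foxc2 upstream: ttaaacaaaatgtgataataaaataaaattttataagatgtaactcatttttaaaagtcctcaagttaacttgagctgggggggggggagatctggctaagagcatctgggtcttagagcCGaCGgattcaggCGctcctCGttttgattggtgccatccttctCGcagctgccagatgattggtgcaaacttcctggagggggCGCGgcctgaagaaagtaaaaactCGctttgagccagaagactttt
Gap peak: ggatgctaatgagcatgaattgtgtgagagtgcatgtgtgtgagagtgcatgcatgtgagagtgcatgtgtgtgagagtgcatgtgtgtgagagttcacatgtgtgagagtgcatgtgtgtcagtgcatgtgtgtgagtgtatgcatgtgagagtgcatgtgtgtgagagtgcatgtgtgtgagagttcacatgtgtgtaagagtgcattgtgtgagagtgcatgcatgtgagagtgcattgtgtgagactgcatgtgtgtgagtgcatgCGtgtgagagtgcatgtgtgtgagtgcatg
The upstream windows of Irf8 and Foxf1a hold 29 CpG each and that of Foxc2 holds 8, against a median of 11 over the 1081 protein-coding genes of chromosome 8, of whose windows 95.7% hold at least 1. Over the 74 protein-coding genes of the stretch the median was 16.5 CpG. The centre of the gap peak holds 1 CpG in 300 bases and is made of short TG-rich repeat units.

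The stretch differs from the rest of chromosome 8 in its make-up. It takes 3.61% of the sequenced length of the chromosome, and it has 16.4 protein-coding genes per Mb against 8.37 elsewhere, a GC content of 51.1% against 42.0%, and 17.2 CpG per kb against 8.74. The lists deposited by the authors hold a position and a score for each peak and no read depth, so how far the number of peaks follows the depth of a library is unknown. The score was taken to be −log10 of the p-value of a peak multiplied by 10. For WAT, the SCD lists reach a score of 30, while the other 6 stop at 50, which is why 50 was used for all of them. The lowest member score was between 50.02 and 52.8 in the 8 lists, and the highest deposited score just below the limit was 49.4 in WAT H3K9me2 SCD and 49.7 in WAT H3K9me3 SCD. At the borders of the stretch, BAT H3K9me2 HFD had 50 peaks in the last 0.5 Mb before it, 63 and 38 in its first and last 0.5 Mb, and 30 in the 0.5 Mb after it, so the peaks did not stop at the coordinates of the rule. The files hold no expression, and the tissue labels could not be checked against marker genes.

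Peaks were denser on distal chromosome 8 than on the rest of the chromosome in all 8 lists, and most of all in BAT H3K9me2 HFD. The densities were 22 members per Mb for BAT H3K9me2 SCD, 110 for BAT H3K9me2 HFD, 22.9 for BAT H3K9me3 SCD and 76.4 for BAT H3K9me3 HFD. In WAT they were 31.6 for H3K9me2 SCD, 22.4 for H3K9me2 HFD, 5.33 for H3K9me3 SCD and 31.8 for H3K9me3 HFD. The rest of chromosome 8 had between 3.04 and 21.8 peaks per Mb in the same lists. The ratio of both densities was 5.87 (95% confidence interval 5.32 to 6.47) for BAT H3K9me2 HFD. It was 3.50 (3.12 to 3.92) for BAT H3K9me3 HFD and 3.43 (2.86 to 4.09) for WAT H3K9me2 SCD, with overlapping intervals. In the remaining lists it was between 1.75 and 2.63. Intervals here are exact (Clopper-Pearson) binomial intervals and cover counting error only. Of all chromosome 8 peaks, the stretch held 18.0% (16.6% to 19.5%) in BAT H3K9me2 HFD and 7.5% (6.14% to 9.06%) in BAT H3K9me2 SCD. The ratio depended on the ground of comparison. Among windows of 100 kb with a GC content of at least 50%, 33 in the stretch and 36 on the rest of the chromosome, the ratio was 1.05 in BAT H3K9me2 HFD, 0.542 in BAT H3K9me2 SCD and between 0.505 and 1.36 over all lists. Per protein-coding gene the ratio was 2.99 in BAT H3K9me2 HFD and between 0.892 and 1.78 in the other lists.

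**Figure D1:**
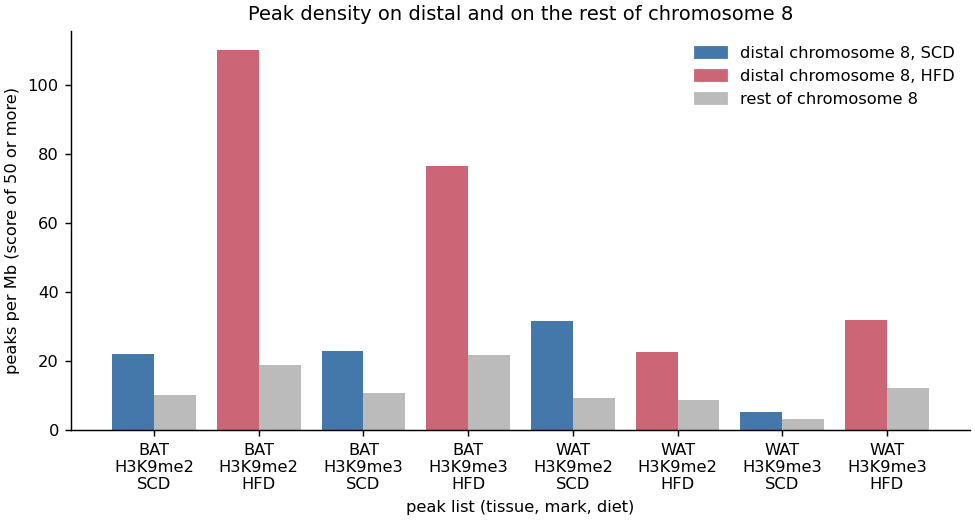
Peaks per Mb (y axis, score of 50 or more) in the 8 lists (x axis), with the stretch in blue for SCD and red for HFD and the rest of chromosome 8 in gray, 1 library a bar. The bar of BAT H3K9me2 HFD reaches 110 peaks per Mb in the stretch against 18.7 elsewhere.

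Under HFD, members were more numerous in BAT for both marks and in WAT for H3K9me3, and fewer in WAT for H3K9me2. There were 99 members in SCD and 495 in HFD for BAT H3K9me2, a ratio of 5 (95% interval 4.02 to 6.27), where the rest of chromosome 8 had a ratio of 1.85. BAT H3K9me3 went from 103 to 344, a ratio of 3.34 (2.67 to 4.204) against 2.06 elsewhere. WAT H3K9me2 went from 142 to 101, a ratio of 0.711 (0.546 to 0.924) against 0.951. WAT H3K9me3 went from 24 to 143, a ratio of 5.96 (3.85 to 9.60) against 3.98. At a score of 50 the diets thus lay further apart in the stretch than on the rest of the chromosome in each pair, which with 1 library a diet was not tested. In WAT this held under some other settings and failed under others. At a score of 80 the ratio of WAT H3K9me2 was 0.8 in the stretch and 0.780 elsewhere. That of WAT H3K9me3 was then 6.86 against 4.92. With all deposited peaks the ratio of WAT H3K9me3 was 1.02 in the stretch and 1.03 elsewhere, and that of WAT H3K9me2 0.358 against 0.510. This sets SCD lists reaching down to a score of 30 against HFD lists that stop at 50. For covered bases, with merging and without the 5S block, the diets lay further apart in the stretch in both WAT pairs. Among windows of 100 kb with a GC content of at least 50%, WAT H3K9me2 had a ratio of 0.775 against 0.652 elsewhere and WAT H3K9me3 one of 5.75 against 9.63. For both marks those windows included the 5S block. Without the block, the WAT H3K9me2 ratio over the whole stretch was 0.496, against 0.951 elsewhere, and that of WAT H3K9me3 was 9.07, against 3.98. When equal numbers of the highest-scoring peaks of the genome were taken from both lists of a pair, BAT H3K9me2 had 99 and 276 members (ratio 2.79, 1.08 elsewhere), BAT H3K9me3 103 and 166 (1.61, 1.04 elsewhere), WAT H3K9me2 142 and 101 (0.711, 0.940 elsewhere) and WAT H3K9me3 24 and 31 (1.29, 1.05 elsewhere). The direction of each pair held, and the ratio of WAT H3K9me3 fell from 5.96 to 1.29. The deposited peaks of all scores were 140 and 143 for WAT H3K9me3.

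In BAT, covered bases gave a smaller difference between diets than counts did, and HFD members without an SCD counterpart were narrower (medians 972.5 bp for H3K9me2 and 611.5 bp for H3K9me3) than those with one (1133 and 1035 bp). Members covered 170.5 kb in SCD and 593 kb in HFD for BAT H3K9me2, which is 3.79% and 13.2% of the stretch, and 184 kb and 335 kb for BAT H3K9me3. In WAT they covered 185 kb and 123 kb for H3K9me2, and 47.3 kb and 199 kb for H3K9me3. The median width of members went from 1373 bp in SCD to 1000 bp in HFD for BAT H3K9me2 and from 1206 to 704 bp for BAT H3K9me3, and in WAT from 904 to 1011 bp for H3K9me2 and from 1036 to 993 bp for H3K9me3. On the rest of chromosome 8 the medians were 968 and 916 bp for BAT H3K9me2, 937 and 707 bp for BAT H3K9me3, 879 and 645 bp for WAT H3K9me2, and 834.5 and 812.5 bp for WAT H3K9me3. The median score was 87.0 in SCD and 75.4 in HFD for BAT H3K9me2, 145 and 97.7 for BAT H3K9me3, 92.3 and 109 for WAT H3K9me2, and 66.7 in both diets for WAT H3K9me3. These scores sit close to those of the rest of the chromosome, which were 87.8 and 76.6, 134 and 102, 91.4 and 77.9, and 71.0 and 74.1 in the same order. The score of WAT H3K9me2 HFD stood highest above the rest, and without the 5S block it was 76.9.

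The HFD peaks of BAT lay along the whole stretch. Of its 45 windows of 100 kb, 45 held a member of BAT H3K9me2 HFD (median 11 peaks a window) and 34 one of BAT H3K9me2 SCD (median 1). For H3K9me3 in BAT, 45 windows held a member in HFD and 35 in SCD. HFD had more peaks than SCD in 44 of the 45 windows for BAT H3K9me2, in 45 for BAT H3K9me3, in 40 for WAT H3K9me3 and in 3 for WAT H3K9me2, where SCD had more in 28. Windows with more peaks in 1 diet were not counted on the rest of chromosome 8. Of its 36 windows with a GC content of at least 50%, 36 held a BAT H3K9me2 peak in HFD and 35 in SCD. For BAT H3K9me3 it was 36 and 34. In the 33 such windows of the stretch it was 33 and 24, and 33 and 25. A BAT HFD peak in every window was thus also seen in GC-rich windows elsewhere. The window with more SCD peaks in BAT H3K9me2 held 5 SCD and 2 HFD peaks at a GC content of 44.8%, the lowest of the 45.

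**Figure D2:**
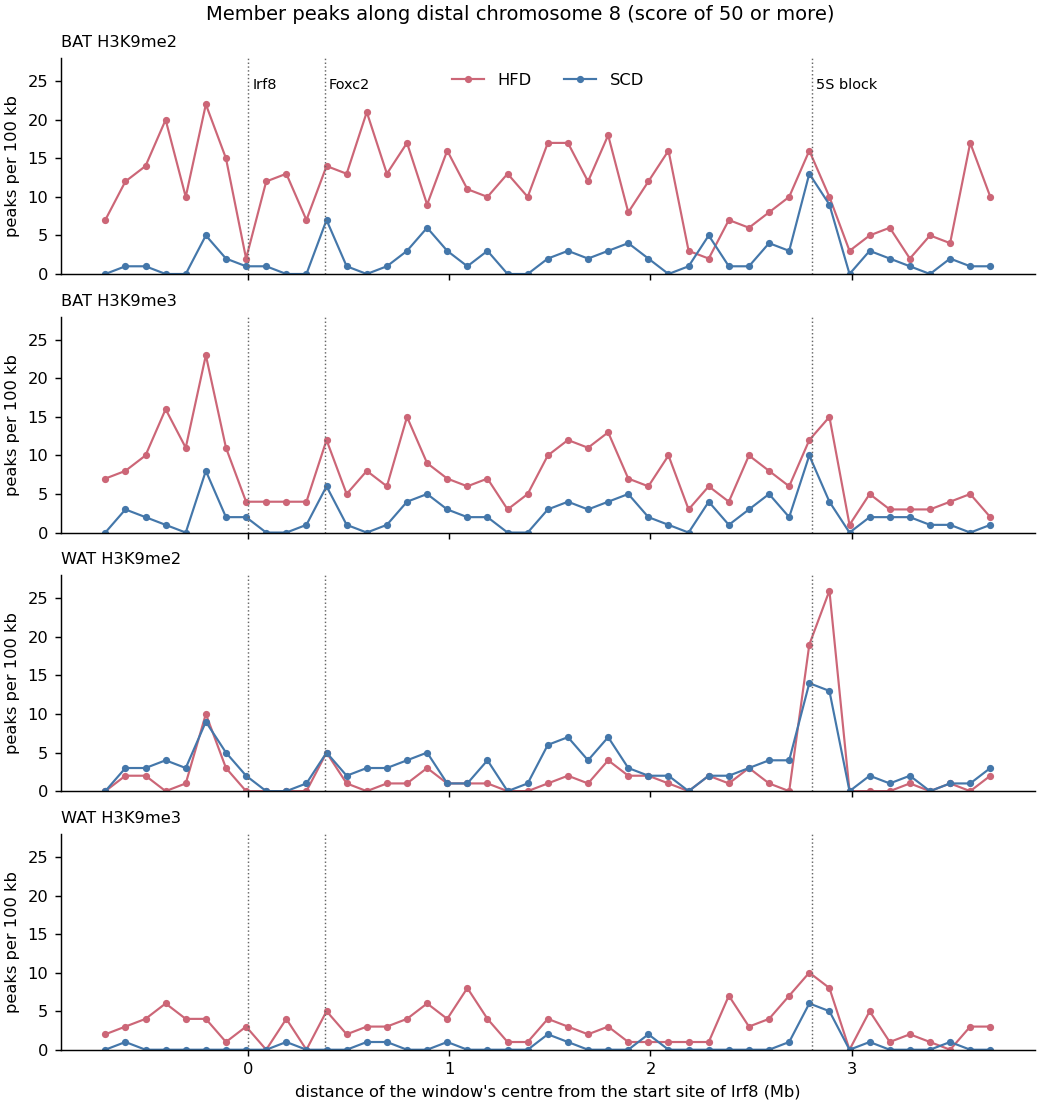
Members per window of 100 kb (y axis) against the distance of the window's centre from the start site of Irf8 in Mb (x axis), with 1 panel for each tissue and mark, SCD in blue and HFD in red, and dotted lines at Irf8, Foxc2 and the start of the 5S block. In BAT H3K9me2 the HFD line reaches 22 peaks and lies above the SCD line in 44 of 45 windows, and in WAT H3K9me2 the highest values, 19 and 26 in HFD, are at the 5S block.

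Of the HFD members of BAT, 40% for H3K9me2 and 36.3% for H3K9me3 lay in long gaps between genes, against 24.002% and 35.0% of the peaks on the rest of chromosome 8, so that for H3K9me3 the share was near that of the background. The stretch has 7 gaps of at least 100 kb between protein-coding genes, 1.73 Mb in all. BAT H3K9me2 had 1 member in SCD and 46 in HFD in the 311 kb between Fam92b and Gse1, 1 and 33 in the 328 kb between Irf8 and Foxf1a, 5 and 55 in the 412 kb between Foxc2 and 1700018B08Rik, and 2 and 33 in the 240.3 kb between Banp and Gm22. BAT H3K9me3 went from 4 to 40, from 2 to 15, from 4 to 26 and from 3 to 15 in the same gaps. In these 4 gaps WAT H3K9me2 went from 10 to 4, from 2 to 1, from 10 to 3 and from 7 to 1, but in the gap between Gas8 and Rhou, which holds the 5S block, it went from 23 to 42. Over all 7 gaps, BAT H3K9me2 had 16.7 members per Mb in SCD and 114 in HFD, against 5.81 and 8.85 in the 135 such gaps of the rest of chromosome 8. Over the whole stretch it had 22 and 110 per Mb, so HFD members were about as dense in the gaps as in the stretch. The whole rest of chromosome 8 had 10.1 and 18.7 per Mb. WAT H3K9me2 had 52 members in SCD and 51 in HFD over the 7 gaps, or 29.99 and 29.42 per Mb. The gaps of the stretch had a GC content of 47.2% to 58.8%. The gap peak whose sequence is given above (1559 bp, score 378) lay between Foxc2 and 1700018B08Rik, and a peak overlapped it in BAT H3K9me3 HFD and in WAT H3K9me3 SCD, and in none of the other 5 lists.

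Most HFD members in BAT had no counterpart, meaning no overlap of at least 1 bp with a peak of the other diet in the same tissue and mark. In BAT H3K9me2, 418 of 495 HFD members (84.4%, 95% interval 80.9% to 87.5%) had none, against 61.6% of HFD peaks on the rest of chromosome 8, and 22 of 99 SCD members (22.2%, 14.5% to 31.7%), against 31%. In BAT H3K9me3 it was 232 of 344 HFD members (67.4%, 62.2% to 72.4%, 57.6% elsewhere) and 5 of 103 SCD members (4.85%, 1.59% to 11.0%, 15.1% elsewhere). In WAT H3K9me2 the order turned, with 17 of 101 HFD members (16.8%, 10.1% to 25.6%, 43.3% elsewhere) and 72 of 142 SCD members (50.7%, 42.2% to 59.2%, 48.1% elsewhere). In WAT H3K9me3 it was 134 of 143 HFD members (93.7%, 88.4% to 97.1%, 87% elsewhere) and 15 of 24 SCD members (62.5%, 40.6% to 81.2%, 47.8% elsewhere). Members without a counterpart scored lower than shared ones in every list, with medians of 72.0 and 110 in BAT H3K9me2 HFD and 78.0 and 256 in BAT H3K9me3 HFD. Such peaks lie nearer to the detection limit, and a peak missing from the other list says only that it was not called at that library's depth. With 495 HFD against 99 SCD members in BAT H3K9me2, a high HFD share partly restates the list lengths. With equal numbers of peaks genome-wide the share was 79.0% in BAT H3K9me2 HFD and 42.2% in BAT H3K9me3 HFD. For BAT H3K9me3 it then no longer covered most HFD members. With equal numbers the share was not computed for the rest of chromosome 8, so these values have no background beside them. Of the 418 HFD members of BAT H3K9me2 without a counterpart, 213 lay outside protein-coding genes, 67 in introns, 62 in exons and 76 at promoters.

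Promoters, taken as all bases within 3 kb of a start site of a protein-coding gene, took a smaller share of members in HFD than in SCD in BAT. The share was 46.5% (36.4% to 56.8%) in SCD and 22.0% (18.4% to 25.9%) in HFD for BAT H3K9me2, and 58.3% (48.1% to 67.9%) and 33.1% (28.2% to 38.4%) for BAT H3K9me3. In WAT it was 40.1% (32.0% to 48.7%) and 40.6% (30.9% to 50.8%) for H3K9me2, which differed by less than the counting error, and 12.5% (2.66% to 32.4%) and 28.7% (21.4% to 36.8%) for H3K9me3. On the rest of chromosome 8 the promoter shares were 41.0% and 31.7%, 45.6% and 30.9%, 47.0% and 43.6%, and 21.3% and 30.4% in the same order. Although the share fell in BAT, the number of promoter members rose, from 46 to 109 for H3K9me2 and from 60 to 114 for H3K9me3. Members outside protein-coding genes made up 48.5% of BAT H3K9me2 HFD against 31.9% on the rest of the chromosome. A gene model annotated as a read-through (Gm20388, 122434741 to 126869622) spans nearly the whole stretch and was left out of the gene bodies. With it kept, at most 2.10% of the members of any list lay outside genes, while promoter shares changed by less than the counting error.

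**Figure D3:**
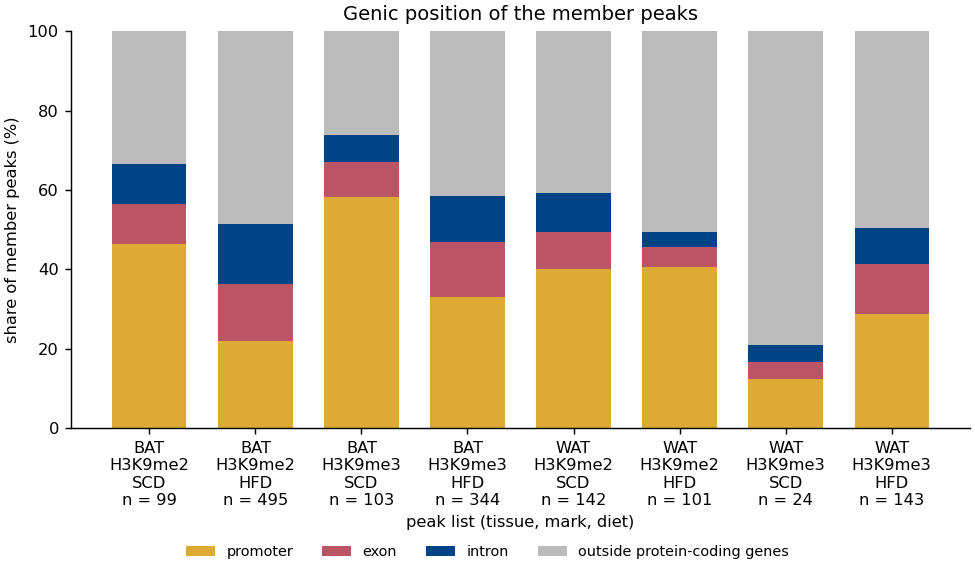
Share of members in % (y axis) at promoters, in exons, in introns and outside protein-coding genes, for the 8 lists (x axis), with the number of members under each bar. The promoter part shrinks from 46.5% to 22.0% between the SCD and HFD bars of BAT H3K9me2 and is 40.1% and 40.6% in WAT H3K9me2.

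Counted by gene, a promoter peak of BAT H3K9me2 SCD lay at 39 of the 74 protein-coding genes (52.7%, against 49% of the 1007 genes on the rest of chromosome 8) and 54 in HFD (73.0%, against 52.6%). For BAT H3K9me3 it was 52 in SCD (70.3%, 58.3% elsewhere) and 65 in HFD (87.8%, 66.7% elsewhere). In WAT H3K9me2 it was 48 in SCD (64.9%, 49.1% elsewhere) and 35 in HFD (47.3%, 44.4% elsewhere), and in WAT H3K9me3 it was 3 in SCD (4.05%, 7.55% elsewhere) and 34 in HFD (45.9%, 40.4% elsewhere). No gene had a promoter peak in all 8 lists, 19 had one in 7, and 5 had none in any list (Dpep1, Gas8, Gm16378, Pabpn1l and Sult5a1).

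The forkhead genes had some of the highest promoter scores of the stretch, which in BAT H3K9me3 SCD were 1064 at Gse1, 978 at Foxc2 and 846 at Foxf1a. At Foxc2 (123640071 to 123642792) the highest promoter score was 341 in SCD and 151 in HFD for BAT H3K9me2, 978 and 919 for BAT H3K9me3, and 311 and 251 for WAT H3K9me2, whereas the WAT H3K9me3 lists had no peak in SCD and one of 232 in HFD. Foxf1a (123608286 to 123610851) scored 156 and 119, 846 and 834, and 291 and 432 in the same order, with no WAT H3K9me3 peak in SCD and one of 109 in HFD. Foxl1 (123651840 to 123652929), a forkhead gene that this annotation lists as a pseudogene and that is therefore not among the 74, scored 93.8 and 73.1, 305 and 491, and 195 and 241, with no peak and one of 150 in WAT H3K9me3. The 3 genes thus shared a pattern, with peaks in 7 lists and none in WAT H3K9me3 SCD, the shortest list. It was not particular to them, since 19 of the 74 genes had peaks in 7 lists and only 3 had one in WAT H3K9me3 SCD. Irf8 (123260258 to 123280594) had lower scores, 66.0 in SCD and 82.6 in HFD for BAT H3K9me2, 120.2 and 242 for BAT H3K9me3, 93.7 in SCD and no peak in HFD for WAT H3K9me2, and no peak in SCD and one of 77.6 in HFD for WAT H3K9me3. Irf8 differed from the forkhead genes in having no WAT H3K9me2 peak in HFD. The windows before Foxc2, Irf8 and Foxf1a whose sequences are given above, with 8, 29 and 29 CpG, thus belong to genes with a promoter peak in 7, 6 and 7 lists. Scores of different lists depend on the depth of each library and are not levels of methylation.

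**Figure D4:**
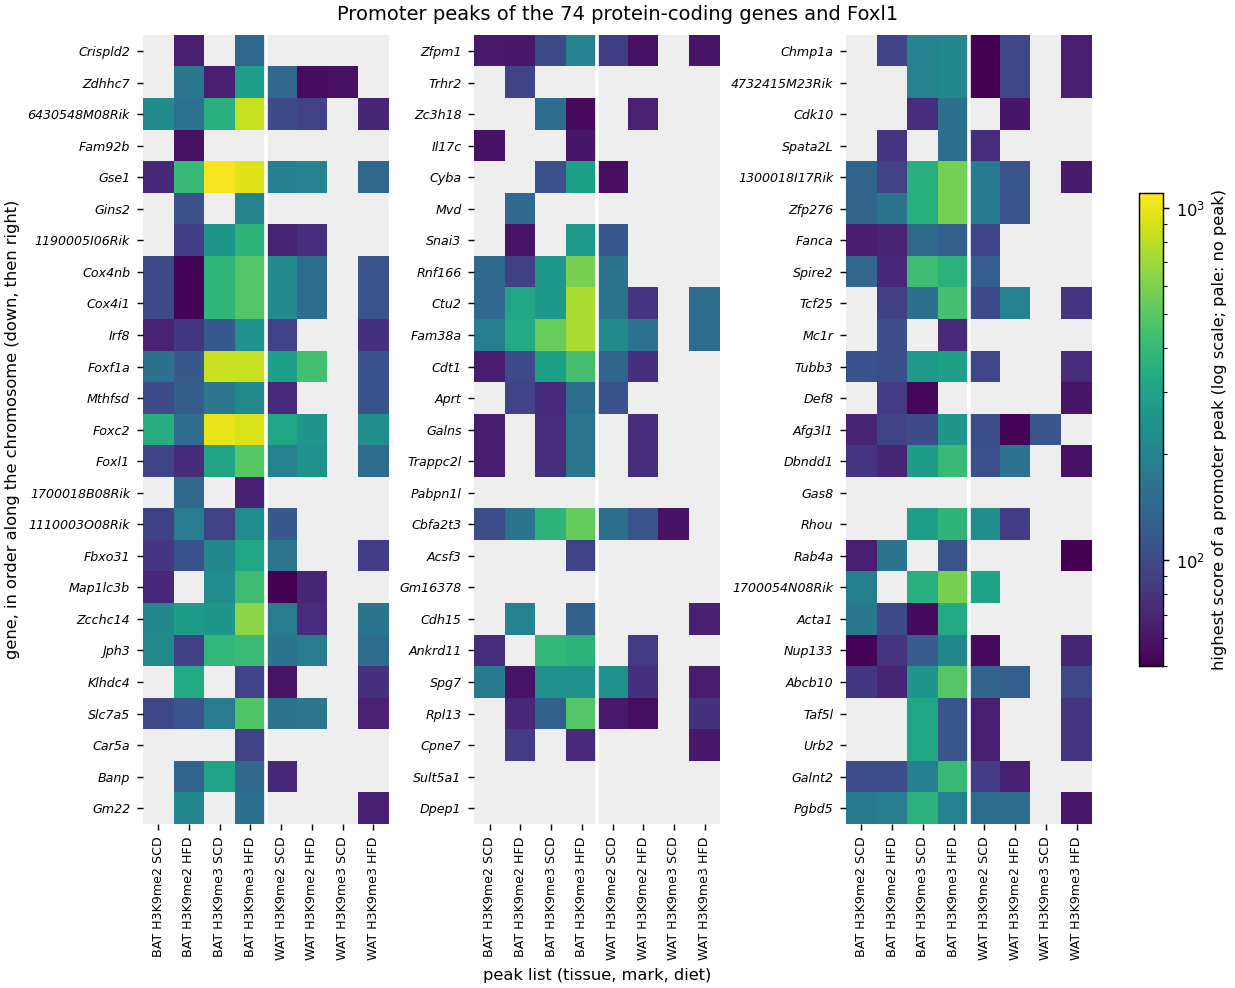
Highest score of a promoter peak (color, log scale from 50) for the 74 protein-coding genes and Foxl1 (rows, in chromosome order down and then to the right) in the 8 lists (columns), pale where there was no peak. The brightest cells are Gse1, Foxc2, Foxf1a and, in HFD, 6430548M08Rik (839) in BAT H3K9me3, and the WAT H3K9me3 SCD column is pale but for 3 genes.

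Among 14 transcription and chromatin factor genes, a promoter peak was present at 9 in SCD and 11 in HFD for BAT H3K9me2, at 13 and 14 for BAT H3K9me3, at 11 and 10 for WAT H3K9me2, and for WAT H3K9me3 1 and 8. Beside the forkhead genes the highest scores here were at Zfp276 (574, BAT H3K9me3 HFD), a zinc finger gene, and Cbfa2t3 (533, same list), a transcriptional corepressor. Of 11 genes of metabolism, mitochondria and autophagy, 7 and 7 had one for BAT H3K9me2, 8 and 10 for BAT H3K9me3, 7 and 6 for WAT H3K9me2, and for WAT H3K9me3 0 and 5. The highest scores were again in BAT H3K9me3 HFD, with 489 at Abcb10, a mitochondrial transporter, 482 at Cox4i1, a subunit of cytochrome c oxidase, 476 at Slc7a5, an amino acid transporter, and 423 at Map1lc3b, the LC3 protein of autophagosomes. Of 12 genes of immune and membrane signaling, 7 and 9 had one for BAT H3K9me2, 8 and 11 for BAT H3K9me3, 7 and 4 for WAT H3K9me2, and for WAT H3K9me3 0 and 6. Fam38a, the earlier name of the mechanosensitive channel gene Piezo1, led this list (746, BAT H3K9me3 HFD), followed by Spire2 (420, BAT H3K9me3 SCD), an actin nucleator, Jph3 (413, BAT H3K9me3 HFD), a junctophilin, and Galnt2 (404, BAT H3K9me3 HFD), a glycosyltransferase. Of 9 genes in the list named genome maintenance and cell cycle, 4 and 6 had one for BAT H3K9me2, 8 and 8 for BAT H3K9me3, 7 and 4 for WAT H3K9me2, and for WAT H3K9me3 0 and 5. Its highest scores were at Rpl13 (485, BAT H3K9me3 HFD), a ribosomal protein, Cdt1 (442, same list), which licenses replication, Urb2 (309, BAT H3K9me3 SCD), of ribosome biogenesis, and Tubb3 (285, BAT H3K9me3 HFD), a neuronal tubulin, so that 3 of these 4 do not act in genome maintenance. Each list moved between diets in the direction of all 74 genes or stayed level. Neighboring genes can share a peak, as Cox4i1 and Cox4nb did, so their counts are not independent.

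Genes with a promoter peak in a single diet followed the same split. In BAT H3K9me2, of the 60 genes with a peak in either diet, 21 had it in HFD only (35%, against 22.8% of such genes on the rest of chromosome 8) and 6 in SCD only (10%, against 17.1%). The highest-scoring HFD-only genes were Klhdc4 (329), Gm22 (206) and Cdh15 (198), a muscle cadherin, and the highest SCD-only genes were 1700054N08Rik (191), Ankrd11 (75.03) and Map1lc3b (71.1). In BAT H3K9me3, of 66 genes, 14 were HFD only (21.2%, against 14.7%), led by Snai3 (267), Gins2 (200.0) and Gm22 (154), and 1 was SCD only (1.52%, against 2.33%), which was Def8 (53.0). In WAT H3K9me2, of 53 genes, 5 were HFD only (9.43%, against 13.5%), led by Ankrd11 (85.8), Galns (74.95) and Trappc2l (74.95), and 18 were SCD only (34.0%, against 21.7%), led by 1700054N08Rik (301), Fbxo31 (167) and Rnf166 (165). In WAT H3K9me3, of 37 genes, 34 were HFD only (91.9%, against 82.2%), led by Foxc2 (232), Zcchc14 (164) and Ctu2 (149), and 3 were SCD only (8.11%, against 4.68%), namely Afg3l1 (113), Cbfa2t3 (58.2) and Zdhhc7 (57.3). 1700054N08Rik had its H3K9me2 peak in SCD only in BAT and in WAT, and Ankrd11 had its H3K9me2 peak in SCD only in BAT and in HFD only in WAT.

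In SCD-fed mice most H3K9me2 members of BAT overlapped H3K9me3, at a share near that of the rest of chromosome 8, and few of WAT did. Of the H3K9me2 members in BAT, 72 of 99 in SCD (72.7%, 95% interval 62.9% to 81.2%) and 208 of 495 in HFD (42.0%, 37.6% to 46.5%) overlapped an H3K9me3 peak of the same diet, against 70.7% and 53.8% on the rest of chromosome 8. In WAT it was 9 of 142 in SCD (6.34%, 2.94% to 11.7%) and 56 of 101 in HFD (55.4%, 45.2% to 65.3%), against 18.6% and 52.9%. Only 24 members of WAT H3K9me3 SCD were there to be overlapped. Counted from H3K9me3, 61.2% (51.1% to 70.6%) of BAT members in SCD and 62.5% (57.1% to 67.6%) in HFD overlapped H3K9me2, against 67.2% and 46.8% elsewhere. In WAT it was 41.7% (22.1% to 63.4%) in SCD and 26.6% (19.5% to 34.6%) in HFD, against 56.8% and 37.1%. In HFD-fed BAT the share thus lay below that elsewhere for H3K9me2 members and above it for H3K9me3 members. Between tissues, 66 of 99 BAT H3K9me2 SCD members (66.7%, 56.5% to 75.8%) overlapped a WAT peak of the same mark and diet, and 52 of 495 in HFD (10.5%, 7.95% to 13.5%), against 56.0% and 24.7% elsewhere. For BAT H3K9me3 it was 6 of 103 in SCD (5.83%, 2.17% to 12.2%) and 83 of 344 in HFD (24.1%, 19.7% to 29.0%), against 11.4% and 35.4%. Seen from WAT, 70 of 142 H3K9me2 members in SCD (49.3%, 40.8% to 57.8%) and 68 of 101 in HFD (67.3%, 57.3% to 76.3%) overlapped a BAT peak, against 63.1% and 54.3% elsewhere. In HFD, only 101 WAT H3K9me2 members were there to be overlapped by the 495 of BAT, which limits the 10.5%. When peaks of all 8 lists that overlapped or touched were merged, the stretch held 639 regions. Of these, 413 were in BAT lists only, 39 in WAT lists only and 187 in both tissues. A single list accounted for 340 regions, 235 of them BAT H3K9me2 HFD, and 384 regions were in 1 or both HFD lists of BAT and in no other list. Merged regions were not counted on the rest of chromosome 8. The HFD lists of BAT were also the longest genome-wide, with 43173 peaks for H3K9me2 and 52758 for H3K9me3. These region counts are therefore not read as particular to the stretch.

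Only 5 merged regions had a peak in all 8 lists. The first lay over the last part of Zfpm1 (124857893 to 124861520), the gene of a GATA cofactor, and took in exonic sequence. Its highest scores were 278 in SCD and 398 in HFD for BAT H3K9me2, 657 and 1550 for BAT H3K9me3, 228 and 176 for WAT H3K9me2, and for WAT H3K9me3 67.1 and 78.8. The other 4 lay in the block of 5S genes.

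The 5S block (126062686 to 126147645, 85.0 kb) held the highest-scoring member of every list. Its 51 genes all lie on the minus strand at a median spacing of 1698 bp, and 92.7% of its runs of 100 bases occur more than once within it, against 0.654% in the equally long stretch after it. Reads that mapped to multiple sites had been removed by the authors, and which bases the reads under these peaks came from cannot be seen in the lists, so scores and gaps of single copies are uncertain. Of the bases under a peak, 99.0% to 99.7% lay in such repeated runs in the 8 lists, and of the bases of the block under no peak 64.8% to 97.4%. The top score was 696 in SCD and 1893 in HFD for BAT H3K9me2, 3017 and 3100 for BAT H3K9me3, 657 and 529 for WAT H3K9me2, and for WAT H3K9me3 197 and 1362. The value of 3100 recurs in the lists and is read as an upper limit. Median scores of the peaks in the block were 280.5 and 376, 817 and 1593, 172 and 140.3, and 75.1 and 391 in the same order. The block thus scored higher in HFD in 3 pairs and lower in WAT H3K9me2. Its peaks numbered 18 and 17, 10 and 20, 23 and 42, and 10 and 16, and covered 67.3% and 70.8%, 74.4% and 96.6%, 76.9% and 84.4%, and 39.9% and 72.6% of it. HFD covered more of the block than SCD in each pair, although peak numbers hardly differed in BAT H3K9me2. The widest members lay there in every list, up to 16904 bp in BAT H3K9me3 SCD and 15214 bp in BAT H3K9me3 HFD. In WAT H3K9me2 HFD the block supplied 42 of the 101 members (41.6%) and 58.5% of the covered bases, and in BAT H3K9me2 HFD 17 of 495 (3.43%) and 10.1%. Without the block, WAT H3K9me2 had 119 members in SCD and 59 in HFD, a ratio of 0.496.

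Single 5S genes differed between lists in the part of the array they occupied. Peaks overlapped 33 of the 51 genes in SCD and 36 in HFD for BAT H3K9me2, 39 and 50 for BAT H3K9me3, 42 and 46 for WAT H3K9me2, and for WAT H3K9me3 21 and 38. Of the 51 genes, 10 were under a peak in all 8 lists and 21 in 7, and every gene was under a peak in at least 2 lists. The last 12 genes of the array were free of peaks in BAT H3K9me2 HFD, BAT H3K9me3 SCD and WAT H3K9me3 HFD, as runs of 19256, 19364 and 19291 bp without a peak. In 6 lists peak borders recurred between lists more in the block than outside it. In WAT H3K9me3 HFD all 16 peaks of the block started within 50 bp of a peak start of another list, against 29.9% of the 127 members outside it, and in BAT H3K9me2 HFD 15 of 17 did, against 16.7% of 478. It was the other way in WAT H3K9me2 HFD, with 38.1% of 42 in the block and 50.8% of 59 outside, and in BAT H3K9me3 SCD, with 60% and 63.4%. A start can recur only where another list has a peak, and 340 of the 639 merged regions of the stretch were in a single list. These shares therefore do not separate recurring borders from the mere presence of peaks.

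**Figure D5:**
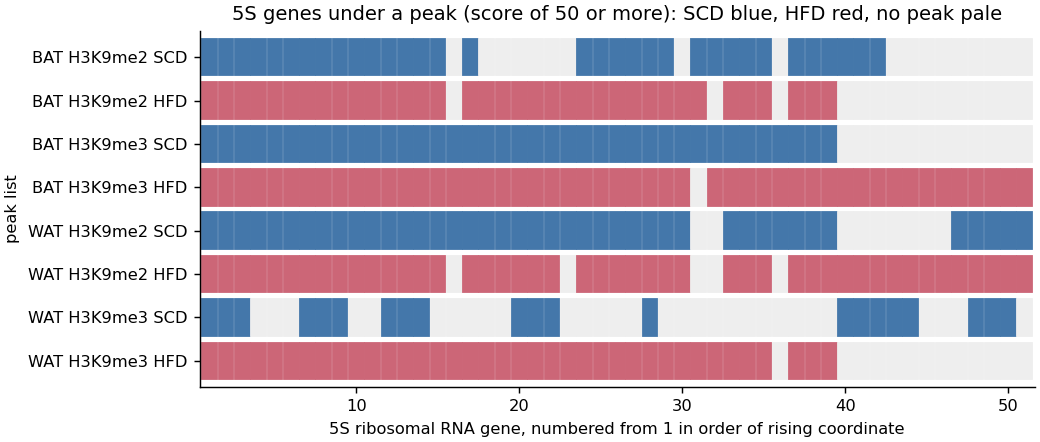
Each column is 1 of the 51 5S genes, numbered by rising coordinate (x axis), and each row is a list (y axis), colored where a peak of score 50 or more overlaps the gene (blue SCD, red HFD) and pale where none does. The right end is pale in 3 lists over the same 12 genes, and BAT H3K9me3 HFD covers 50 of the 51 genes.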

How the data were processed

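Peaks of H3K9me2 and H3K9me3 were analyzed in 8 ChIP-seq libraries of BAT and WAT. Per the labels and methods, the authors used FastQC, Trim Galore, Bowtie2 2.4.2 (mm9) and MACS2, and removed reads mapping to multiple sites. How the 4 inputs among the 12 libraries entered the peak calling is not given in the sources used here, and they were not used here. The deposited score (column 5) has no stated unit and is not scaled between libraries. It was read as 10 times the negative log10 of a p-value because 6 lists start at 50 (p of 1e-05). The methods pair each mark with an antibody described for the other, so marks are named as in the labels.

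The members and gene lists were chosen with earlier results of these data known. Genes came from GENCODE vM1 on NCBIM37, and 5 groups of genes and peaks were named by rule: Irf8, the forkhead and 5S genes, up to 4 genes of each list with the highest score, up to 3 genes in a single diet, genes with a promoter peak in all or no lists, and the 3 highest-scoring and the widest peaks of a list. Symbols were matched to older names through the RefSeq gene table (GRCm38.p6). Groups came from the labels, with 1 library each, so no p-value is given. Alternatives were a score of 80, all deposited peaks, equal numbers of peaks, other overlap and promoter rules, removal of the 5S block, and other grounds of comparison. Python 3.11.15, NumPy 2.4.6, SciPy 1.17.1 and matplotlib 3.10.9 were used. The sequence of the 5S genes is not reported here. Steps tested on 5000 simulated peaks gave 0 wrong calls.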

Additional observations from a re-analysis of the deposited data

Results flagged for a closer look

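For H3K9me2, the ratio of HFD to SCD members was 5 in BAT and 0.711 in WAT, so the diets differed in opposite directions in these tissues. The difference between the tissues was not tested, because there was 1 library of each diet and tissue.

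Peaks with a score under 50 were left out of the comparisons and occur only in the SCD lists of WAT, which were deposited down to a score of 30. On distal chromosome 8 there were 140 of them for H3K9me2 and 116 for H3K9me3, beside the 142 and 24 members of these lists.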

How the results depend on the processing

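No paired analysis was possible because each group has 1 library, and for the same reason no library could be left out. A value was counted as moved where it left the 95% counting interval of its main value. Of 64 density ratios 40 stayed within it, 14 moved and 10 turned to the other side of 1. Of 24 diet ratios 15 stayed and 9 moved, with none turning. Of the shares, 23 of 32 stayed for members without a counterpart, 25 of 32 for marks and tissues, and 21 of 40 for genic position. Some of these values could not move. Only the SCD lists of WAT hold peaks under 50, so elsewhere the use of all deposited peaks repeats the main value. The counts of values that stayed are therefore not read as a measure of stability.

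The values that left the interval follow in the order BAT H3K9me2 SCD and HFD, BAT H3K9me3 SCD and HFD, WAT H3K9me2 SCD and HFD, WAT H3K9me3 SCD and HFD, unless named. Per protein-coding gene the density ratio was 1.10, 2.99, 1.10, 1.78, 1.75, 1.31, 0.892 and 1.34. In windows of at least 50% GC (chosen after seeing the data) it was 0.542, 1.05, 0.505, 0.869, 0.829, 0.985 and, in WAT H3K9me3 HFD, 0.815. In windows with no start site (also chosen after seeing the data) it was 0.476, 13.0, 0.764, 4.12 and, in WAT H3K9me2 HFD, 0.475. At a score of 80 it was 3.38 in WAT H3K9me2 HFD and 2.005 in WAT H3K9me3 HFD, and without the 5S block 1.53 in WAT H3K9me2 HFD and 1.04 in WAT H3K9me3 SCD.

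The diet ratio was 2.79 in BAT H3K9me2, 1.61 in BAT H3K9me3 and 1.29 in WAT H3K9me3 with equal numbers, and 3.48 and 1.82 in BAT H3K9me2 and BAT H3K9me3 for covered bases. It was 0.358 in WAT H3K9me2 and 1.02 in WAT H3K9me3 with all deposited peaks, and in WAT H3K9me2 0.509 with merging and 0.496 without the 5S block. The share without a counterpart was 32.7% in BAT H3K9me2 SCD and 61.1% in BAT H3K9me3 HFD at a score of 80. With equal numbers it was 41.4%, 79.0%, 17.5%, 42.2% and, in WAT H3K9me3 HFD, 80.6%. With counterparts from all deposited peaks it was 8.91% in WAT H3K9me2 HFD and 79.7% in WAT H3K9me3 HFD.

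The share overlapping the other mark was 81.8% in BAT H3K9me2 SCD, 50% in BAT H3K9me3 SCD, 44.0% in BAT H3K9me3 HFD and 56.2% in WAT H3K9me3 HFD at a score of 80, and 32.1% in BAT H3K9me2 HFD with 50% of the peak covered. With the other tissue it was 17.1% in BAT H3K9me3 HFD and 75% in WAT H3K9me3 HFD at a score of 80. The promoter share with 1 start site per gene was 34.3%, 10.7%, 21.5% in BAT H3K9me3 HFD, 28.2%, 29.7% and, in WAT H3K9me3 HFD, 17.5%. With promoters of 1 kb on either side it was 13.7% in BAT H3K9me2 HFD and 23.8% in BAT H3K9me3 HFD. At a score of 80 it was 29.1% in BAT H3K9me2 HFD, 40.3% in BAT H3K9me3 HFD and 52.5% in WAT H3K9me2 SCD. With the read-through gene model kept, the share outside genes was 0.606% in BAT H3K9me2 HFD, 2.10% in WAT H3K9me3 HFD and 0% in the other 6 lists. The cause was not tested, beyond what each alternative changes by its own construction. The lists hold no read depth, so how far depth limits these counts is unknown.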

Other observations

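The CpG content of members without a counterpart in the other diet was compared with that of shared ones. In BAT H3K9me2 HFD the members without a counterpart had a median of 19.4 CpG per kb and the shared ones 45.0, in BAT H3K9me3 HFD 27.9 and 64.9, and in WAT H3K9me2 SCD 34.5 and 60.8. BAT H3K9me2 SCD went the other way, with 71.4 without a counterpart (22 members) and 49.2 shared.

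Among windows of at least 50% GC, the ratio of HFD to SCD peaks for BAT H3K9me2 was 5.58 in the 33 windows of the stretch and 2.88 in the 36 windows of the rest of chromosome 8, and for BAT H3K9me3 it was 3.59 and 2.08. WAT went the other way, with 0.775 and 0.652 for H3K9me2 and 5.75 and 9.63 for H3K9me3. There the diets lay further apart on the rest of the chromosome. For both marks these windows include those of the 5S block. The block's windows held 14 and 13 WAT H3K9me2 peaks in SCD and 19 and 26 in HFD. For WAT H3K9me3 they held 6 and 5 in SCD and 10 and 8 in HFD. Without the block, the WAT H3K9me2 ratio over the whole stretch was 0.496, against 0.951 elsewhere. That of WAT H3K9me3 was 9.07, against 3.98. For the GC-rich windows alone neither ratio was computed without the block, so how far the block sets them was not tested. In the 11 windows of the stretch with no start site of a protein-coding gene, BAT H3K9me2 had a mean of 0.273 peaks in SCD and 11.5 in HFD, against 0.573 and 0.891 in the 662 such windows elsewhere. Of those 11 windows 8 had a GC content of at least 50%, as did 1 of the 662, so base composition and the lack of genes cannot be told apart from position there.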
